A study of Mus musculus with 10 samples.

Results

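The CC chemokine genes Ccl2, Ccl3, Ccl4, Ccl5, Ccl6, Ccl7, Ccl9, Ccl12, Ccl17 and Ccl22 were followed in mouse bone marrow-derived macrophages stimulated through TLR7. They were taken by name from the CC chemokine family, 10 of the 55573 genes in the table. CC chemokines are small secreted proteins with adjacent cysteines near their start, and they draw leukocytes along gradients by binding receptors of the CCR family. Macrophages release several of them after sensing microbial products or nucleic acids, and the mixture released sets which leukocytes are recruited. Ligands of CCR1 attract monocytes, T cells and NK cells, ligands of CCR2 attract inflammatory monocytes, and ligands of CCR4 attract helper and regulatory T cells.

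With these libraries the study asked whether the response to guanosine nucleosides under block of purine nucleoside phosphorylase (PNP) matches that to synthetic TLR7 ligands. Wild-type macrophages from female C57BL/6 mice were grown with M-CSF and treated for 4 h in 5 groups of 2 libraries, and the age of the mice is not given. The groups were vehicle, 5 μg poly-uridine RNA in DOTAP (polyU), the PNP inhibitor ulodesine at 1 μM with 5 μM dG and 5 μM rG (PNPi+dG/rG), those agents combined (PNPi+dG/rG+polyU, the combined treatment), and 1 ng/mL of the synthetic TLR7 ligand R848. As models, the groups are limited by a single time and a single dose, by the absence of a DOTAP-only group and of groups with ulodesine or nucleosides alone, and by R848 being given without ulodesine. The labels call the libraries of a group biological replicates, and p-values here measure only the spread between these libraries, part of which may be technical.

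Values are CPM, the deposited unit, which scales every library to the same total, and fold changes are differences of mean log2 CPM. By the size of 1 read in CPM, the vehicle libraries held 17820955 and 17798369 reads on genes and the polyU libraries 17598252 and 17208173. The PNPi+dG/rG libraries were deeper, at 38392592 and 37402322 reads, the libraries of the combined agents held 14128128 and 14214911, and those of R848 were unequal at 18831299 and 32659499. A level of 3 reads, used as the floor for a gene at 0, was thus between 0.0781 and 0.212 CPM. Of the 10 chemokines, 9 reached 1 CPM in 2 or more libraries and were tested among 11978 genes with limma, and Ccl17 did not pass that filter. Of the 9, Ccl22 alone did not reach 1 CPM in both vehicle libraries and passed through polyU, the combined treatment and R848. Its tests against vehicle and for the interaction were thus favoured by the filter, and the counts of chemokines called below include it. A gene is called higher or lower where its Benjamini-Hochberg adjusted p is under 0.05 and its change is at least 2-fold.

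The macrophage label was checked against marker genes. All 10 macrophage markers were present in every library, and their summed level was 18042 and 18514 CPM with vehicle, 17928 and 17202 with polyU, 18686 and 18441 with PNPi+dG/rG, 15705 and 15725 with the combined treatment, and 16444.5 and 16869 after R848. The most abundant of them was Lyz2 in every library, at 10805 and 11067 CPM with vehicle, so the sum says little of the others. Of the 10, Cd14 was called higher with the combined treatment (2.30-fold) and R848 (6.45-fold), and Mertk was called lower with both, to 0.222 and 0.136 times its vehicle level. Fcgr1 was called lower with R848 only, to 0.478 times, and polyU and PNPi+dG/rG gave 0 calls of these markers in limma against vehicle. Cd3d, Cd3e and Gzma of T and NK cells, Ly6g and Retnlg of neutrophils, Cd209a and Xcr1 of dendritic cells, and Ms4a2 and Tpsb2 of mast cells were at 0 throughout. Others were low but present: Trac of T cells lay between 1.31 and 5.95 CPM, and the B cell markers summed to between 0.401 and 1.86 CPM. Itgax of the dendritic cell list, which macrophages also express, was not low, at between 49.2 and 82.6 CPM. In bulk RNA, fewer cells of a type and less RNA per cell cannot be told apart.

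As a group, the 10 chemokine mRNAs made up 0.191% and 0.179% of each vehicle library, 0.246% and 0.245% under polyU, and 0.184% and 0.183% under PNPi+dG/rG. The combined treatment brought the share to 1.08% and 1.14%, and R848 to 1.18% and 1.22%. Vehicle, polyU and PNPi+dG/rG libraries thus lay close together on this share, and every library of the combined treatment and of R848 lay far above them. The composition of the pool also differed between groups. Ccl3, Ccl4 and Ccl5 together held 11.1% and 12.1% of the chemokine CPM with vehicle, 70.2% and 69.3% with the combined treatment, and 60.3% and 61.7% after R848. The summed share of the CCR2 ligands Ccl2, Ccl7 and Ccl12 went the other way, from 26.2% and 25.2% with vehicle to 9.03% and 10.3% with the combined treatment and 3.49% and 3.496% after R848. Ccl12 was an exception within that sum with the combined treatment, where its mean share was 0.505%, against 0.232% with vehicle and 0.116% after R848. Ccl6 and Ccl9 held 62.6% and 62.7% with vehicle, 20.7% and 20.3% with the combined treatment, and 36.0% and 34.6% after R848. A lower share was not always a lower level. In CPM, the CCR2 ligands summed to 501 and 450 with vehicle, 977 and 1183 with the combined treatment, and 413 and 426 after R848. Ccl6 and Ccl9 summed to 1198 and 1122 CPM with vehicle, 2235 and 2323 with the combined treatment, and 4256 and 4219 after R848.

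**Figure D1:**
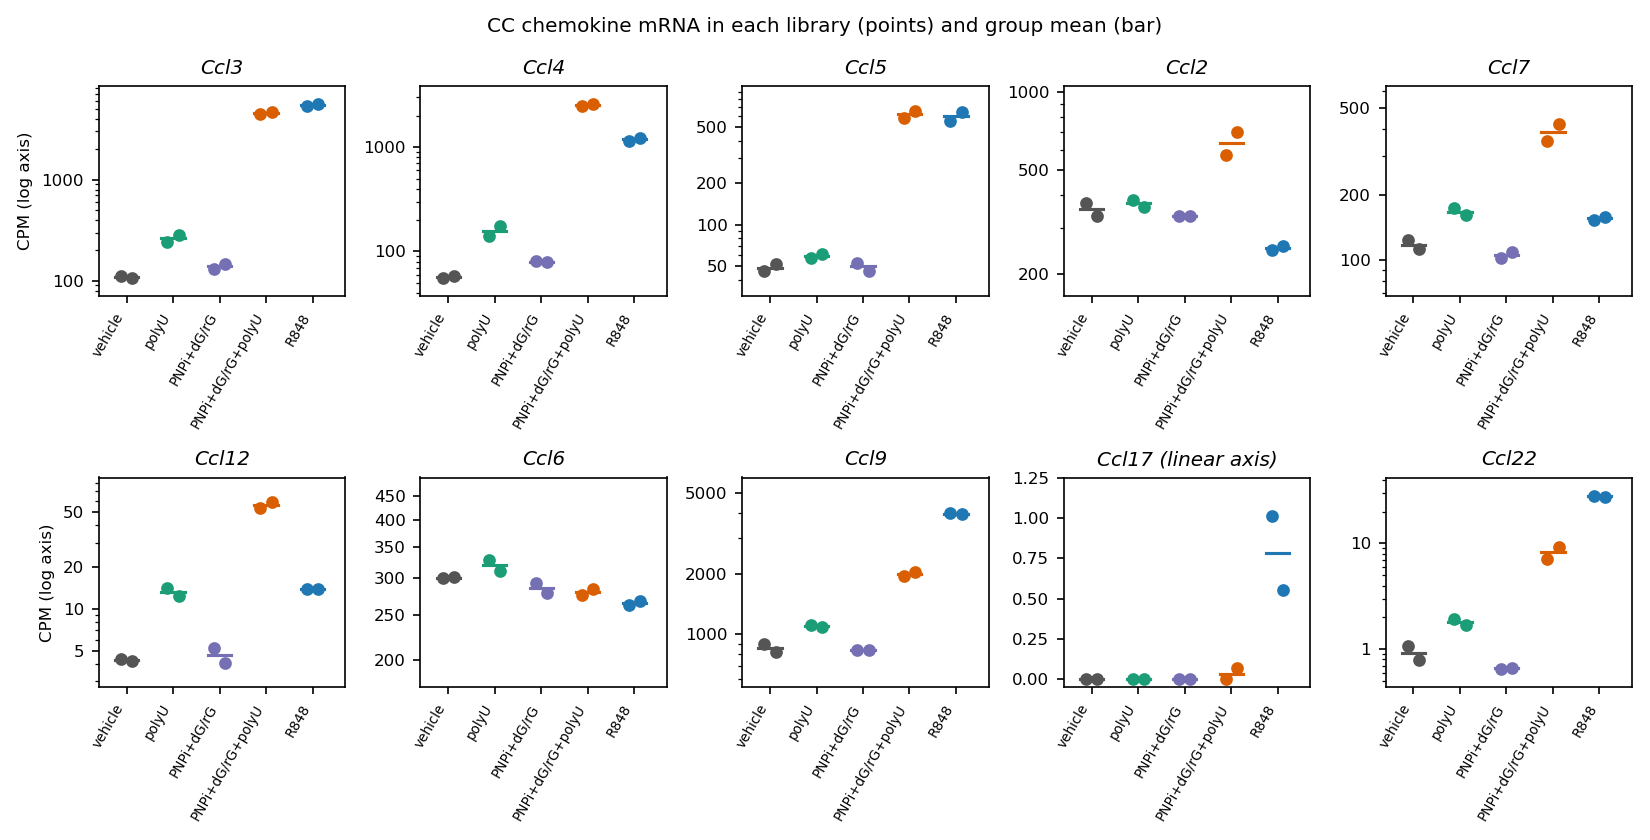
CPM of each CC chemokine in every library (points) with the group mean (bar), on a log axis except for Ccl17. Ccl3, Ccl4 and Ccl5 stand high with PNPi+dG/rG+polyU and R848, Ccl12 is highest with PNPi+dG/rG+polyU at 53.6 and 58.8 CPM, and Ccl17 exceeds 3 reads only with R848.

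Against vehicle, polyU alone raised 3 of the 9 tested chemokines, Ccl3, Ccl4 and Ccl12, and lowered 0, while 3.21% of all genes tested were called higher and 0.776% lower. The median log2 fold change with polyU was 0.50 over the 9 chemokines and 0.02 over all genes. PNPi+dG/rG alone gave 0 chemokine calls in limma in either direction, with 0.0668% of all genes called higher and 0.00835% lower. At an unadjusted p under 0.05, 3 of the 9 chemokines and 1076 of the 11978 genes stood out with PNPi+dG/rG. Of these 3, Ccl3 and Ccl4 were higher and Ccl22 was lower. At an adjusted p under 0.05, whatever the fold change, 2 of the 9 remained, Ccl3 and Ccl4, beside 0.801% of all genes. The medians of log2 fold change were -0.04 over the chemokines and 0.02 over all genes. The combined treatment raised 7 of the 9, Ccl3, Ccl4, Ccl5, Ccl7, Ccl9, Ccl12 and Ccl22, and lowered 0, with 8.12% of all genes called higher and 14.3% lower. R848 raised 6 of the 9, which were the same genes without Ccl7, and lowered 0, with 8.89% of all genes called higher and 30.3% lower. The counts for the combined treatment and R848 include Ccl22, whose test was favoured by the filter. These comparisons share the vehicle libraries, so their values are given side by side for each gene.

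The genes as a whole did not centre on 0 in the stimulated groups. Against vehicle, the median log2 change of the 11978 genes was -0.22 under the combined treatment and -0.50 under R848, and the chemokine medians were 3.15 and 2.21. Where each library is instead centred on its median gene, 8 chemokines are called higher with the combined treatment, Ccl2 being added at a centred log2 value of 1.05, and 6 remain with R848. Centring adds 0.59 to each log2 change between R848 and vehicle and 0.64 to each between R848 and polyU. Over all genes, centring turns the split from 973 higher and 1712 lower to 1192 and 1245 for the combined treatment, and from 1065 and 3633 to 1792 and 2107 for R848. Log2 values called centred below come from that scaling, and the others are as deposited.

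**Figure D2:**
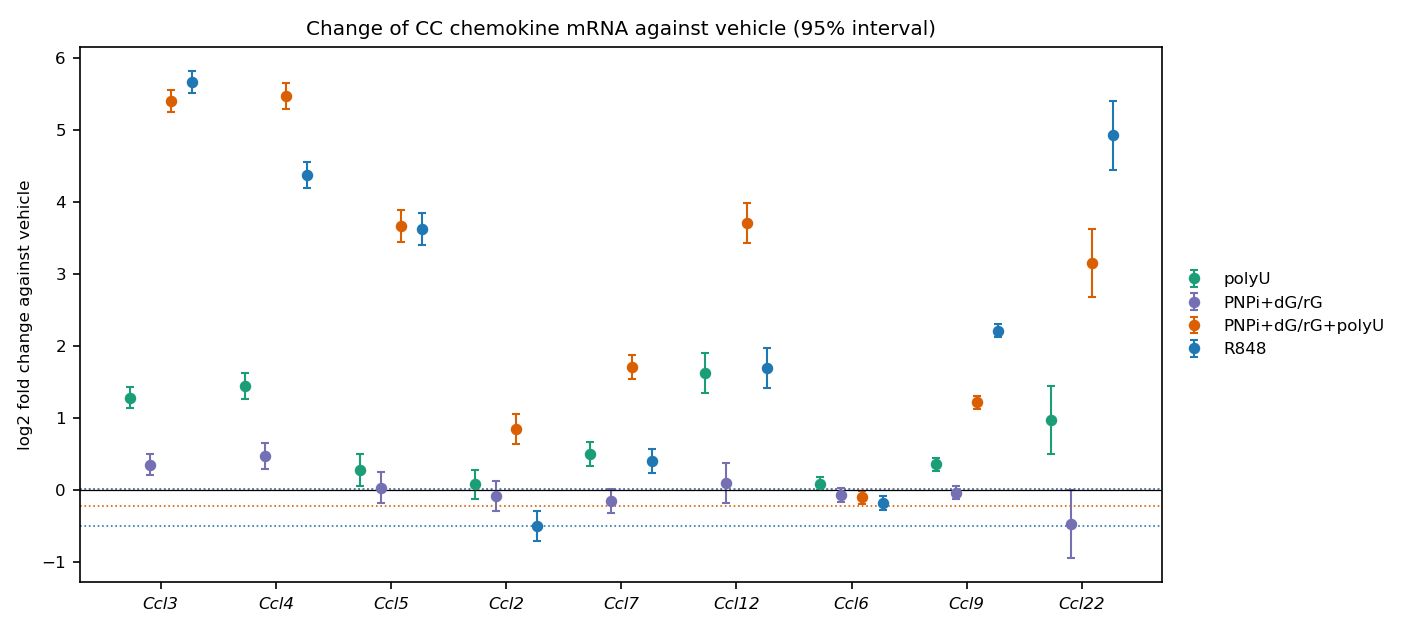
Log2 fold change against vehicle, with 95% interval, of the 9 tested CC chemokines in the 4 treated groups, and dotted lines at the median over all genes. Among the 9 genes, Ccl3 and Ccl4 lie highest within the combined treatment, at 5.41 and 5.47, and Ccl3 lies higher still with R848, at 5.67. Ccl2 lies on opposite sides of 0 with the combined treatment and R848.

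Ccl3, which encodes the leukocyte attractant MIP-1α, stood at 111 and 106 CPM with vehicle, 244 and 285 with polyU, 132 and 146 with PNPi+dG/rG, 4514 and 4690.4 with the combined treatment, and 5406 and 5639 after R848. No groups overlapped, and the step from the first 3 groups to the last ones was far larger than any gap between replicates. Ccl3 rose 42.4-fold with the combined treatment (log2 5.41, SE 0.0674, adjusted p 7.61e-15) and 50.9-fold with R848 (log2 5.67, adjusted p 2.15e-15). With polyU alone Ccl3 rose 2.43-fold (log2 1.28, adjusted p 4.11e-08). PNPi+dG/rG alone left it below the 2-fold threshold (log2 0.35, adjusted p 0.0375), and after centring the adjusted p was 0.0960 at a log2 value of 0.32.

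Ccl4, encoding the leukocyte attractant MIP-1β, stood at 56.0 and 58.5 CPM with vehicle, 140.2 and 174 with polyU, 80.7 and 78.8 with PNPi+dG/rG, 2506 and 2578 with the combined treatment, and 1157 and 1229 after R848. Unlike Ccl3, it was highest with the combined treatment, where both libraries stood above both R848 libraries. Ccl4 rose 44.4-fold with the combined treatment (log2 5.47, SE 0.0818, adjusted p 4.48e-13), 20.8-fold with R848 (log2 4.38, adjusted p 1.49e-12) and 2.73-fold with polyU (log2 1.45, adjusted p 2.36e-07). The value for PNPi+dG/rG alone was log2 0.48 with an adjusted p of 0.0293, short of 2-fold, and after centring it was 0.45 with an adjusted p of 0.0700.

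The CPM of Ccl3 over that of Ccl4 separates R848 from the other groups. This ratio was 1.98 and 1.81 with vehicle, 1.74 and 1.64 with polyU, 1.64 and 1.85 with PNPi+dG/rG, 1.80 and 1.82 with the combined treatment, and 4.67 and 4.59 after R848. In 8 of the 10 libraries Ccl3 thus kept a ratio under 2, whatever the level of the genes, and only the R848 libraries departed from it.

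Ccl5, encoding RANTES, a T cell attractant, stood at 46.0 and 51.7 CPM with vehicle, 57.3 and 61.4 with polyU, 53.3 and 46.8 with PNPi+dG/rG, 582 and 659.7 with the combined treatment, and 558 and 648 after R848. The libraries of the combined treatment and of R848 overlapped each other, and so did those of vehicle and PNPi+dG/rG. Ccl5 rose 12.7-fold with the combined treatment (log2 3.67, SE 0.0974, adjusted p 1.96e-10) and 12.3-fold with R848 (log2 3.62, adjusted p 1.15e-10). PolyU alone gave a log2 value of 0.28 (adjusted p 0.0453), short of 2-fold, so Ccl5 was low in each group that did not combine the agents or receive R848.

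Ccl2, encoding the monocyte attractant MCP-1 that binds CCR2, stood at 374 and 334 CPM with vehicle, 385 and 360.3 with polyU, 332 and 333 with PNPi+dG/rG, 571 and 702 with the combined treatment, and 246 and 255 after R848. It was highest with the combined treatment and lowest with R848, with no overlap between these and vehicle, and the polyU and vehicle libraries overlapped. Neither change reached 2-fold, at log2 0.84 with the combined treatment (SE 0.0908, adjusted p 2.91e-05) and log2 -0.50 with R848 (adjusted p 0.000739). Both depend on the scaling: centred, the first becomes 1.05 and is called, and the value for R848 turns to 0.10 with an adjusted p of 0.332.

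Ccl7, encoding the CCR2 ligand MCP-3, stood at 123 and 112 CPM with vehicle, 173 and 161 with polyU, 102 and 109 with PNPi+dG/rG, 352 and 422 with the combined treatment, and 153 and 157 after R848. Its combined-treatment libraries stood clear of the rest, and its polyU libraries stood above its R848 libraries. Ccl7 rose 3.28-fold with the combined treatment (log2 1.71, SE 0.0772, adjusted p 5.25e-10). PolyU alone (log2 0.50, adjusted p 0.00024) and R848 (log2 0.40, adjusted p 0.000376) stayed short of 2-fold, and centring brought the R848 value to 0.99.

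Ccl12, encoding MCP-5, a CCR2 ligand found in mice, stood at 4.38 and 4.21 CPM with vehicle, 14.1 and 12.4 with polyU, 5.18 and 4.06 with PNPi+dG/rG, 53.6 and 58.8 with the combined treatment, and 13.9 and 14.0 after R848. The R848 libraries lay within the range of the polyU libraries, and the combined-treatment libraries stood far above both. Ccl12 rose 13.1-fold with the combined treatment (log2 3.71, SE 0.128, adjusted p 4.67e-13), 3.24-fold with R848 (log2 1.70, adjusted p 4.66e-09) and 3.08-fold with polyU (log2 1.62, adjusted p 8.97e-08).

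The CCR2 ligands therefore differed among themselves in their changes. The CPM of Ccl2 over Ccl7 was 3.03 and 2.97 with vehicle, 3.24 and 3.05 with PNPi+dG/rG and 2.23 and 2.24 with polyU. It was 1.62 and 1.66 with the combined treatment and 1.61 and 1.62 after R848, so this ratio was alike in the last groups although Ccl2 and Ccl7 themselves were not. Ccl2 over Ccl12 was 85.4 and 79.2 with vehicle, 64.0 and 81.9 with PNPi+dG/rG, and 27.3 and 29.0 with polyU. It was 10.7 and 11.9 with the combined treatment, and 17.7 and 18.2 after R848.

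Ccl9, a mouse CCR1 ligand also known as MIP-1γ, stood at 898 and 819.7 CPM with vehicle, 1116 and 1085 with polyU, 836 and 833 with PNPi+dG/rG, 1959 and 2039 with the combined treatment, and 3994 and 3951 after R848. The R848 libraries were the highest and the combined-treatment libraries came next, and only the vehicle and PNPi+dG/rG libraries overlapped. Ccl9 rose 4.63-fold with R848 (log2 2.21, SE 0.0417, adjusted p 1.80e-16) and 2.33-fold with the combined treatment (log2 1.22, adjusted p 4.29e-13). With polyU its log2 value of 0.36 (adjusted p 5.87e-06) stayed short of 2-fold.

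Ccl6, a related mouse CCR1 ligand, was the steadiest of the tested chemokines, at 300.0 and 302 CPM with vehicle, 329 and 311 with polyU, 294 and 279 with PNPi+dG/rG, 276 and 284 with the combined treatment, and 262 and 269 after R848. All its libraries lay within a narrow band, and R848 held the lowest. No comparison called it: the log2 value was -0.10 with the combined treatment (SE 0.0437, adjusted p 0.0471) and -0.18 with R848 (adjusted p 0.00131). Centring turned both to positive values, 0.11 and 0.41 (adjusted p 1.59e-07 for the latter), so the direction of Ccl6 against vehicle rests on the scaling. The CPM of Ccl9 over Ccl6 was 2.99 and 2.72 with vehicle, 3.39 and 3.49 with polyU, 2.85 and 2.98 with PNPi+dG/rG, 7.09 and 7.18 with the combined treatment, and 15.2 and 14.7 after R848.

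Ccl22, encoding the CCR4 ligand MDC, stood at 1.07 and 0.787 CPM with vehicle, 1.93 and 1.69 with polyU, 0.651 and 0.668 with PNPi+dG/rG, 7.15 and 9.29 with the combined treatment, and 28.0 and 27.6 after R848. R848 stood highest, and the low groups rest on few reads, 19 and 14 with vehicle. Ccl22 rose 30.4-fold with R848 (log2 4.93, SE 0.222, adjusted p 6.76e-12) and 8.90-fold with the combined treatment (log2 3.15, adjusted p 3.56e-09). With a pseudocount of 1 these log2 values shrank to 3.91 and 2.25, and both were still called. With polyU the log2 value was 0.98 (adjusted p 0.00246), just short of 2-fold. It exceeded 2-fold without vehicle replicate 1 (log2 1.20) and without polyU replicate 2 (log2 1.08), and its lowest value over all settings was log2 0.546.

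Ccl17, encoding the other CCR4 ligand TARC, was at 0 CPM in every vehicle, polyU and PNPi+dG/rG library and in the first library of the combined treatment. The second library of the combined treatment held 0.0703 CPM, which is 1 read, and the R848 libraries held 1.01 and 0.551 CPM, from 19 and 18 reads. Only R848 thus stood above the floor, where the group mean of Ccl17 was 4.63 times the 3-read floor of the vehicle libraries. That floor is a bound for the vehicle level only. The value leaves out counting error in the 19 and 18 reads of R848 and any spread between libraries. A single library reached 1 CPM, short of the filter, and with no filter (25920 genes) limma gave log2 12.86 (SE 3.87, adjusted p 0.0131), a value set by the offset added to each 0.

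Markers of other cells also moved with R848 and, less so, with the combined treatment. The 7 fibroblast and stroma markers summed to 0.561 and 1.18 CPM with vehicle, 0.966 and 1.16 with polyU, 0.990 and 1.44 with PNPi+dG/rG, 4.03 and 5.28 with the combined treatment, and 139 and 149 after R848. Col1a1 was the most abundant with R848, at 51.6 and 58.3 CPM, and none of the 7 was at 0 in all libraries. With the combined treatment most of the sum was Pdgfrb, at 3.19 and 4.29 CPM. The stroma markers that were tested passed the filter only through R848, or for Pdgfrb also through the combined treatment, so their tests are not counted here. The 5 endothelial markers went down in sum, from 246 and 239.6 CPM with vehicle, 221 and 245 under polyU, and 207.5 and 207.4 under PNPi+dG/rG, to 143 and 143 with the combined treatment and 64.5 and 69.8 after R848, Kdr being the most abundant with vehicle at 156 and 146 CPM and Emcn at or near 0. With R848 Kdr, at 18.5 and 21.1 CPM, was called lower, and the scarce Pecam1, which passed the filter only through R848, went from 0.337 and 0.0562 to 1.06 and 1.07 CPM. The 8 neutrophil markers, with Mmp8 the most abundant in all libraries and Ly6g and Retnlg at 0, summed to between 12.4 and 18.2 CPM in the other groups and to 42.9 and 42.0 after R848. With R848 Mmp8 was called higher, and Ngp was called lower, from 1.12 and 1.01 CPM to 0. Camp, which passed the filter only through R848, stood at 0 and 0.0562 CPM with vehicle, 0.849 and 0.563 with the combined treatment, and 1.91 and 1.81 after R848. Kit, the most abundant of the 5 mast cell and basophil markers in each library, stood at 13.8 and 14.2 CPM with vehicle, 7.22 and 11.04 with polyU, 7.03 and 7.35 with PNPi+dG/rG, 2.83 and 1.76 with the combined treatment, and 0.584 and 0.980 after R848. Gm42418, an abundant transcript overlapping ribosomal RNA sequence, varied between libraries, at 13526 and 8686 CPM with vehicle, 24169 and 26083 with polyU, 18790.2 and 20786 with PNPi+dG/rG, 23187 and 23169.9 with the combined treatment, and 37144 and 16100.0 with R848. The part of these in the chemokine values was not tested.

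The combined treatment was next set against polyU alone, which tells what PNPi+dG/rG added in the presence of the RNA. It raised 6 of the 9 tested chemokines and lowered 0, with 5.29% of all genes called higher and 10.2% lower, and the median log2 values were 2.08 and -0.24. Ccl3 rose 17.4-fold (log2 4.12, adjusted p 2.22e-13), Ccl4 16.3-fold (log2 4.02, adjusted p 1.20e-11) and Ccl5 10.4-fold (log2 3.39, adjusted p 6.76e-10). Ccl22 rose 4.52-fold (log2 2.17, adjusted p 4.98e-07), Ccl12 4.24-fold (log2 2.08, adjusted p 1.15e-09) and Ccl7 2.31-fold (log2 1.21, adjusted p 3.01e-08). Ccl3, Ccl4 and Ccl5 therefore gained most from the addition, and the gains of the CCR2 ligands were smaller. Ccl9 (log2 0.86, adjusted p 6.35e-11) and Ccl2 (log2 0.77, adjusted p 7.41e-05) stayed short of 2-fold, and centring, which calls 8 chemokines, brought them to 1.12 and 1.02. Ccl6 stood at log2 -0.19 (adjusted p 0.0013) and turned to 0.06 when centred. Over all genes centring moved the split from 634 higher and 1219 lower to 829 and 755.

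Whether the combined treatment exceeded what the separate agents would give when multiplied was tested as the interaction of PNPi+dG/rG and polyU. It was positive and at least 2-fold for 6 of the 9 tested chemokines and negative for 0, with 4.55% of all genes called higher and 8.87% lower, and medians of log2 interaction of 1.99 and -0.27. For Ccl3 the separate fold changes multiply to 337 CPM, and the measured geometric mean was 4601 CPM, 13.6 times as much (log2 interaction 3.77, SE 0.0953, adjusted p 3.59e-11). Ccl4 reached 2542 CPM against 218 from the product, 11.7 times as much (log2 interaction 3.55, SE 0.116, adjusted p 1.61e-09). Ccl5 reached 619 CPM against 60.7, 10.2 times as much (log2 interaction 3.35, SE 0.138, adjusted p 2.62e-08). Ccl3, Ccl4 and Ccl5 were the most supra-multiplicative of the chemokines.

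Ccl22 followed, at 8.15 CPM against 1.30 from the product, 6.27 times as much (log2 interaction 2.65, SE 0.314, adjusted p 5.16e-06), which a pseudocount of 1 brought to a log2 interaction of 1.92. Among the CCR2 ligands, Ccl12 reached 56.1 CPM against 14.1, 3.97 times as much (log2 interaction 1.99, SE 0.181, adjusted p 2.73e-07). Ccl7 reached 386 CPM against 149.5, 2.58 times as much (log2 interaction 1.37, SE 0.109, adjusted p 5.65e-07). The remaining tested genes fell short of the 2-fold threshold on this measure. Ccl9 stood at 1.87 times the product (log2 interaction 0.90, adjusted p 5.98e-09) and was called at 1.19 when centred. Ccl2 stood at 1.81 times (log2 interaction 0.85, adjusted p 0.00057), and it was called at 1.14 when centred and at 1.00 without PNPi+dG/rG+polyU replicate 1 (adjusted p 8.85e-07). Ccl6 stood at 0.920 times (log2 interaction -0.12, adjusted p 0.117) and turned to 0.17 when centred (adjusted p 0.0313), far short of 2-fold. Centring called 8 chemokines and moved the split over all genes from 545 higher and 1062 lower to 751 and 567.

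The combined treatment and R848 were then compared directly. Of the 9 tested chemokines, 4 were higher and 1 was lower with the combined treatment, beside 16.9% and 3.86% of all genes, and the medians of log2 difference were 0.08 and 0.31. The CCR2 ligands were each higher with the combined treatment than with R848: Ccl12 4.04-fold (log2 2.01, adjusted p 1.48e-09), Ccl2 2.53-fold (log2 1.34, adjusted p 1.11e-06) and Ccl7 2.48-fold (log2 1.31, adjusted p 1.05e-08). Ccl4 was also higher, 2.13-fold (log2 1.09, adjusted p 5.66e-07). The CCR4 ligand Ccl22 was lower with the combined treatment (log2 -1.77, adjusted p 3.57e-06). Ccl9 was lower too (log2 -0.99, adjusted p 1.30e-11), just short of 2-fold, and it was called at -1.02 without PNPi+dG/rG+polyU replicate 2 (adjusted p 3.95e-09). Ccl3 differed by log2 -0.26 (adjusted p 0.00428), and Ccl5 by 0.04 with a 95% interval of -0.18 to 0.26 (adjusted p 0.710). Ccl6 differed by log2 0.08 (adjusted p 0.124).

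Most of these calls depended on the scaling, and the median gene itself was 0.31 higher in log2 with the combined treatment than with R848. When centred, Ccl12 remained higher, and Ccl2 at 0.96, Ccl7 at 0.93 and Ccl4 at 0.71 no longer reached 2-fold. Ccl9 was then called lower at -1.37 beside Ccl22, giving 1 chemokine higher and 2 lower, and Ccl3 stood at -0.65. Ccl5 turned to -0.34 (adjusted p 0.0102) and Ccl6 to -0.31 (adjusted p 8.24e-06), neither reaching 2-fold. Over all genes the split moved from 2019 higher and 462 lower to 1194 and 852.

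R848 against polyU raised 5 of the 9 tested chemokines and lowered 0, with 7.55% of all genes called higher and 31.6% lower, and medians of log2 difference of 1.85 and -0.56. They were Ccl3 (log2 4.39, adjusted p 3.03e-14), Ccl22 (log2 3.95, adjusted p 1.30e-10, and 3.36 with a pseudocount of 1), Ccl5 (log2 3.34, adjusted p 2.44e-10), Ccl4 (log2 2.93, adjusted p 5.61e-11) and Ccl9 (log2 1.85, adjusted p 1.93e-15). No CCR2 ligand was called between these groups. Ccl12 differed by log2 0.07 (adjusted p 0.609) and Ccl7 by -0.10 (adjusted p 0.233), and Ccl2 was at -0.57 (adjusted p 0.000281). When centred, Ccl7 turned to 0.54 (adjusted p 2.87e-05) and Ccl12 stood at 0.71 (adjusted p 9.86e-05), again short of 2-fold. Centring also turned Ccl2 to 0.06 and Ccl6 from -0.27 to 0.37, and it moved the split over all genes from 904 higher and 3783 lower to 1778 and 1944.

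Levels of different genes were ranked per kilobase of exon. With vehicle, Ccl2 came first at a mean of 311 CPM per kb and Ccl9 next at 282, with overlapping libraries, followed by Ccl6 at 168. Ccl7 at 147 and Ccl3 at 142 CPM per kb overlapped, and then came Ccl4 at 86.8, Ccl5 at 50.9, Ccl12 at 7.999 and Ccl22 at 0.398. The unstimulated order was thus led by a CCR2 ligand and the C6-type ligands. With polyU the first places were those of Ccl9 at 361, Ccl3 at 346 and Ccl2 at 327 CPM per kb, with overlapping libraries, and with PNPi+dG/rG they were those of Ccl2 at 292, Ccl9 at 274 and Ccl3 at 181. With the combined treatment Ccl3 led at 6008 CPM per kb and Ccl4 followed at 3852, both clear of the rest. Ccl9 at 656, Ccl5 at 647, Ccl2 at 559.5 and Ccl7 at 483 CPM per kb each overlapped with the next, above Ccl6 at 156, Ccl12 at 105, Ccl22 at 3.53 and Ccl17 at 0.0684. R848 gave an order without overlaps, Ccl3 at 7209 CPM per kb, Ccl4 at 1808, Ccl9 at 1304.5, Ccl5 at 628, Ccl2 at 220.0, Ccl7 at 194, Ccl6 at 148, Ccl12 at 25.9, Ccl22 at 11.97 and Ccl17 at 1.52. Ccl3 thus stood in the middle of the order with vehicle, among the first 3 with polyU and PNPi+dG/rG, and clear of the rest at the top with the combined treatment and R848, and Ccl12 and the CCR4 ligands stayed at the bottom however far they rose.

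The genes with the profile most like each chemokine were sought by the root mean square difference of log2(CPM + 1) fold changes against vehicle over the 4 treated groups. The candidates were 8458 other genes that averaged 10 CPM or more, or 8459 for Ccl22. For Ccl3 they were Adora2a at 0.20, Hcar2 at 0.26 and Fpr2 at 0.31, for Ccl4 Cd40 at 0.40, Socs1 at 0.45 and Dusp2 at 0.48, and for Ccl5 Tma16 at 0.21, Arhgef3 at 0.24 and Pim1 at 0.28. For Ccl2 they were Phlpp1 at 0.12, Cited2 at 0.12 and Spn at 0.13, for Ccl7 Swap70 at 0.16, 5430427O19Rik at 0.16 and Etv3 at 0.18, and for Ccl12 Batf2 at 0.32, Ifi209 at 0.34 and Helz2 at 0.37. Ccl9 lay closest to Agtrap, Tmem170b and Plekhg1, each at 0.12, Ccl6 to Ddx17 at 0.03, Hnrnpa2b1 at 0.04 and Arpc2 at 0.04, and Ccl22 to F11r at 0.22, Slc7a2 at 0.23 and AA467197 at 0.25. No chemokine was among the closest genes of another. Within the family the closest pairs were Ccl2 with Ccl6 at 0.50, Ccl2 with Ccl7 at 0.66, Ccl3 with Ccl4 at 0.66 and Ccl5 with Ccl22 at 0.73, and the farthest was Ccl3 with Ccl6 at 4.06.

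Position on the genome was compared with these profiles, as a description. By GENCODE M21 coordinates on GRCm38, 8 of the 10 genes lie on chromosome 11 and 2, Ccl22 and Ccl17, on chromosome 8 with 58.8 kb between them. Ccl2, Ccl7 and Ccl12 follow on the plus strand in that order with gaps of 8.26 and 54.3 kb, and 1422 kb further on come Ccl5, Ccl9, Ccl6, Ccl3 and Ccl4. The gaps in that second cluster are 42.4, 9.25, 54.8 and 13.2 kb, and all its genes are on the minus strand except Ccl4. In the first cluster Ccl11, at 0 in all libraries, lies between Ccl7 and Ccl12, and Ccl8 lies past Ccl12. For Ccl2, Ccl7 and Ccl12 the combined treatment gave log2 changes of 0.84, 1.71 and 3.71 in map order, and R848 gave -0.50, 0.40 and 1.70, while Ccl8 stood at 0.95 and 0.60. Across the second cluster Ccl9 and Ccl6 were the nearest in position, and R848 gave them log2 changes of 2.21 and -0.18. Chemokine genes next to each other thus responded very differently there, and Ccl3 and Ccl4, also close together, both rose strongly.

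**Figure D3:**
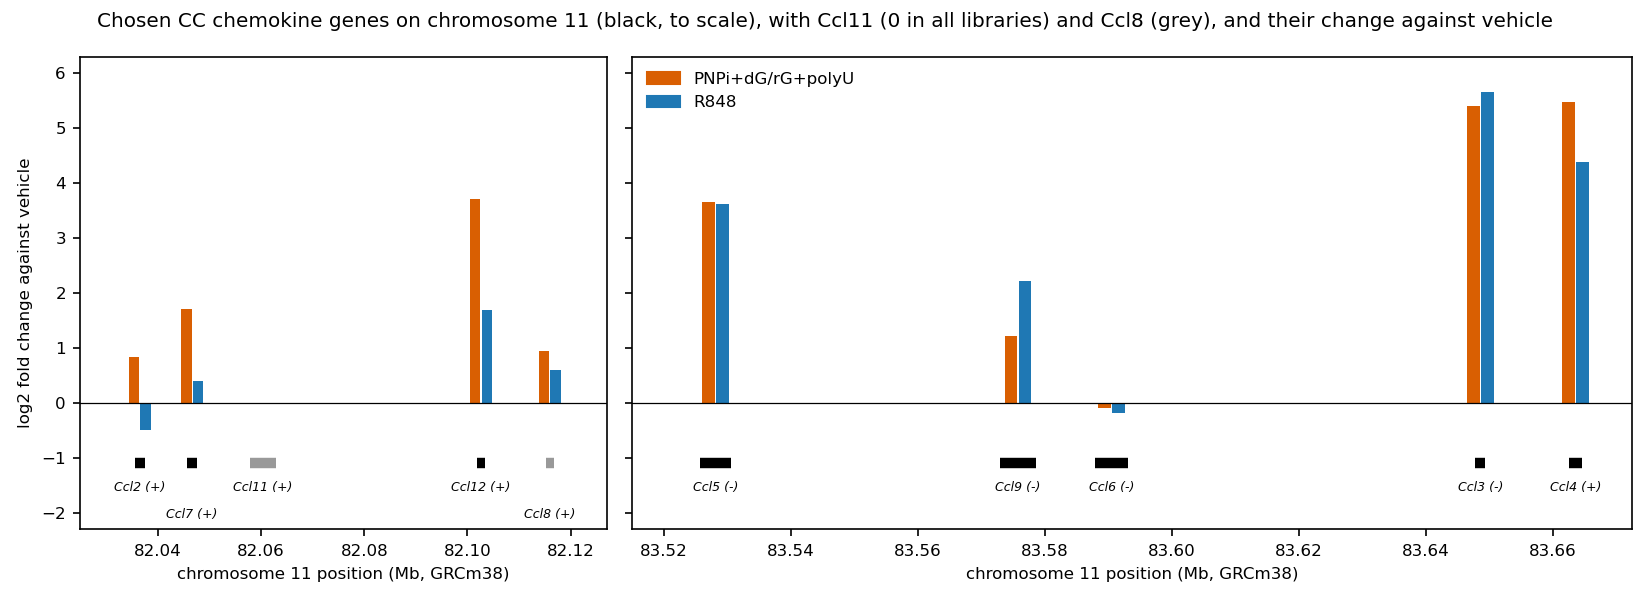
Log2 fold change against vehicle of the 8 chosen CC chemokine genes on chromosome 11, and of Ccl8 (bars, the combined treatment and R848) above the genes drawn to scale with their strand, with Ccl11 and Ccl8 in grey. Ccl6 stays near 0, at -0.10 and -0.18, between Ccl9 and Ccl3.

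Reads could in part be shared between genes. Of the 10 chemokines, 9 shared no 50-base stretch of their transcripts with another gene, 50 bp being the read length, and Ccl9 shared 59 of 2996 such stretches (1.97%). On the opposite strand Ccl2 is overlapped by Gm17268, at 0 CPM in all libraries, and Ccl6 by E230016K23Rik, at 0 to 0.637 CPM. The library kit keeps the strand, and the strand setting used in counting is not given.

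Promoters from RefSeq (GRCm38.p6) are shown for Ccl9 and Ccl6, which responded differently, and for Ccl3 and Ccl12, which rose the most or nearly so in their clusters. They are the 250 bases before the RefSeq start, 5′ to 3′ on the strand of the gene. Capitals mark matches to 4 motifs searched on both strands: the κB consensus, the AP-1 motif TGANTCA, the interferon-response motif (GAAA, NN and GAAA in a row) and the C/EBP motif TTGCNNAA.
Ccl9: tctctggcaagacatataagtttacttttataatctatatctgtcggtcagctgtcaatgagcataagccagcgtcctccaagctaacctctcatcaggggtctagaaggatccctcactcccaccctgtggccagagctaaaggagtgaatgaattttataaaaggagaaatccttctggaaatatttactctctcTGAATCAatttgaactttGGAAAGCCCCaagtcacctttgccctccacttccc
Ccl6: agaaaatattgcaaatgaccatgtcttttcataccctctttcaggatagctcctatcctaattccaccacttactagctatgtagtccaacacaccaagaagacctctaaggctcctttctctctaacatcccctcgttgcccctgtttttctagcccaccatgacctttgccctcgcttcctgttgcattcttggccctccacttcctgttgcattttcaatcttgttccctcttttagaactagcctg
Ccl3: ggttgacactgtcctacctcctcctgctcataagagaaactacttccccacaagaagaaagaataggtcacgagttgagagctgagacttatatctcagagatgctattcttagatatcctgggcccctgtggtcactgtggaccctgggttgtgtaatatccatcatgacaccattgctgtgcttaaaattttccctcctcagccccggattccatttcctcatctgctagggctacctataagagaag
Ccl12: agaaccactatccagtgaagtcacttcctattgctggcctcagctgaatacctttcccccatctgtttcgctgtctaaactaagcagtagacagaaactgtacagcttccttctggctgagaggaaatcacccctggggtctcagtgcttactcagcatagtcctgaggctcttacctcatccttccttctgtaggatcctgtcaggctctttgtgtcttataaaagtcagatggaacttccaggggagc
They lie at chr11:83578637-83578886 (minus strand, Ccl9), chr11:83593088-83593337 (minus, Ccl6), chr11:83649379-83649628 (minus, Ccl3) and chr11:82101595-82101844 (plus, Ccl12). Ccl9 held a κB match on the opposite strand, 25 bases before the start, and an AP-1 match, 46 bases before it. Ccl6, Ccl3 and Ccl12 held no match in these windows, nor did Ccl17 and Ccl22, whose promoter is given for 156 bases. Of 32851 promoters of any gene, 7.25% held the κB consensus, 6.75% TGANTCA, 2.98% the interferon-response motif and 9.56% TTGCNNAA. The table has no promoter for Ccl2, Ccl4, Ccl5 and Ccl7.

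The family has other members, of which 11 were examined. Only Ccl8 and Ccl25 passed the filter, 4 (Ccl11, Ccl19, Ccl21a and Ccl26) were at 0 in all libraries, and the highest value among the others was 0.796 CPM. Ccl8, encoding the monocyte attractant MCP-2, stood at 1.40 and 1.18 CPM with vehicle, 1.31 and 0.988 with polyU, 1.04 and 0.722 with PNPi+dG/rG, 2.19 and 2.81 with the combined treatment, and 1.75 and 2.17 after R848. Both combined-treatment libraries and both R848 libraries of Ccl8 stood above all the others. Ccl8 was higher with the combined treatment than with polyU (log2 1.13, adjusted p 0.00611), a call that was not run under other settings. Its log2 interaction was 1.70 (adjusted p 0.00567), which was just under 2-fold at 0.99 with a pseudocount of 1. Against vehicle Ccl8 reached log2 0.95 with the combined treatment (adjusted p 0.0152), short of 2-fold, and was called when centred (1.16). It also exceeded 2-fold without vehicle replicate 1 (1.07) and without PNPi+dG/rG+polyU replicate 1 (1.13). Its lowest value over all settings was log2 0.609. With R848 Ccl8 stood at log2 0.60 (adjusted p 0.0925) and was called at 1.20 when centred (adjusted p 0.00287). Ccl25, a CCR9 ligand, stood at 4.60 and 4.10 CPM with vehicle, 2.97 and 3.66 with the combined treatment (log2 -0.40, adjusted p 0.0671) and 2.66 and 2.60 after R848 (log2 -0.72, adjusted p 0.00195), and centred it was at -0.13 (adjusted p 0.526). Ccl20, the CCR6 ligand, was seen only with R848, at 0.319 and 0.796 CPM from 6 and 26 reads.

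Of 15 CC chemokine receptor genes examined, atypical receptors included, 5 passed the filter, and Ccr8, Ackr1 and Ackr2 were at 0 throughout. Ccrl2, an atypical receptor that binds chemerin, stood at 7.52 and 6.01 CPM with vehicle, 14.5 and 19.3 with polyU, 6.46 and 7.14 with PNPi+dG/rG, 139 and 144 with the combined treatment, and 105 and 113 after R848. Its low and high groups were therefore those of Ccl4. Ccrl2 rose with the combined treatment (log2 4.39, adjusted p 5.40e-12), R848 (log2 4.02, adjusted p 6.82e-12) and polyU (log2 1.31, adjusted p 5.65e-06). Ccr1, the receptor for Ccl3, Ccl5, Ccl6 and Ccl9, stood at 12.3 and 13.5 CPM with vehicle and 32.9 and 31.7 after R848 (log2 1.33, adjusted p 9.17e-08), and the combined treatment left it at 10.1 and 12.8. Ccr2, the receptor for Ccl2, Ccl7 and Ccl12, stood at 3.98 and 2.87 CPM with vehicle, 3.24 and 4.18 with polyU, 1.82 and 1.98 with PNPi+dG/rG, 2.48 and 2.53 with the combined treatment, and 1.38 and 1.62 after R848. All libraries with PNPi+dG/rG, alone or combined, thus also lay below those of vehicle, and PNPi+dG/rG alone gave log2 -0.83 (unadjusted p 0.00389, adjusted p 0.186). It fell with R848 (log2 -1.17, adjusted p 0.000365), a call lost when centred (-0.58), with a pseudocount of 1 (-0.81) and without vehicle replicate 1 (-0.94). Ccr4, the receptor for Ccl17 and Ccl22, did not exceed 0.0703 CPM, and the highest value among the receptors that did not pass was 0.779 CPM, of Ccr7 with the combined treatment.

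Ccr3, a receptor for Ccl5 and Ccl7, stood at 3.03 and 3.48 CPM with vehicle, 7.43 and 8.65 with the combined treatment and 5.31 and 7.20 after R848. It rose with the combined treatment (log2 1.30, adjusted p 2.08e-05), and with R848 it stood at log2 0.93, passing when centred (1.52), without vehicle replicate 2 (1.03) and without R848 replicate 1 (1.15). Ccr9, the receptor for Ccl25, stood at 0.224 and 0.337 CPM with vehicle, 2.41 and 2.39 with the combined treatment and 3.505 and 3.03 after R848. It passed the filter only through these treated groups, so its test was favoured by the filter, and its log2 values of 3.12 and 3.57 shrank to 1.41 and 1.74 with a pseudocount of 1.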

How the data were processed

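Per the labels and the study's methods, polyadenylated RNA from 10 libraries was sequenced on an Illumina HiSeq (1 × 50 bp), demultiplexed with bcl2fastq 2.19.1.403, mapped with STAR 2.27a to GRCm38 and counted on Ensembl 97 genes. The authors normalized the counts in Partek Flow to CPM and added 0.0001, and the deposited CPM carry that offset. Here, log2 of these values was fitted with limma 3.58.1 (statmod 1.5.0, R 4.3.3), with all 10 libraries in 1 model and trended, robust variance moderation. Genes needed at least 1 CPM in at least 2 libraries. Calls needed a Benjamini-Hochberg adjusted p under 0.05 and at least a 2-fold change, adjusted over the 11978 genes within each of 8 comparisons. Depth per library is given above, and 95% intervals come from the fit. The members and lists were chosen with earlier results of these data known. Genes were named by list: every chemokine, the related chemokines and receptors that passed the filter, and the 3 most alike genes. Genes of these lists that did not pass are given by counts and highest values, and 1 further receptor gene is left out. Alternatives were other pseudocounts (0.1 and 1), filters, median centring, plain variance moderation, only the groups compared, a replicate block and leaving out each library. The pipeline was tested on simulated data. Python 3.11.15 with numpy 2.4.6, pandas 2.3.3 and matplotlib 3.10.9 read the tables, GENCODE M21 positions and RefSeq promoters. Dates of handling were not used.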

Additional observations from a re-analysis of the deposited data

Results flagged for a closer look

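For 8 of the 9 tested chemokines the effect of PNPi+dG/rG differed between cells with and without polyU by the test of that difference itself, the interaction term in limma, at an adjusted p under 0.05, as for 50.7% of all genes tested. For 6 of them the interaction was also at least 2-fold, beside 4.55% of all genes higher and 8.87% lower by the same thresholds. The log2 interaction of Ccl3 was 3.77. That of Ccl4 was 3.55. Ccl5 had a log2 interaction of 3.35. The value for Ccl7 was 1.37. Ccl12 gave 1.99 on the same scale. Ccl22 gave 2.65, from few reads in the low groups, and 1.92 with a pseudocount of 1. It passed the filter through polyU, the combined treatment and R848, so its test was favoured by the filter. Ccl9 at 0.90 and Ccl2 at 0.85 stayed short of 2-fold.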

How the results depend on the processing

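The cause of each difference below was not tested unless the setting itself shows it. Of the log2 values of the 9 tested chemokines under other settings, 1273 kept their side of the thresholds, 10 newly passed, 3 no longer passed and 10 changed sign where either value had an adjusted p under 0.05. All of those sign changes came from centring each library on its median gene, which by construction moves every gene of a library alike. Centred, Ccl6 stood at 0.11 for the combined treatment against vehicle, 0.0626 against polyU, 0.41 for R848 against vehicle and 0.37 for R848 against polyU, -0.31 for the combined treatment against R848 and 0.17 for the interaction, Ccl2 at 0.10 for R848 against vehicle and 0.0647 against polyU, Ccl5 at -0.34 for the combined treatment against R848, and Ccl7 at 0.54 for R848 against polyU. Centring also left 3 in place of 5 chemokines called between the combined treatment and R848. Alternatives for Ccl8, Ccl25 and the receptors were chosen after seeing the data. They were not run for the combined treatment against polyU or for R848 against polyU. Of their values, 744 kept their side, 7 newly passed and 4 no longer passed. Ccrl2 changed sign between the combined treatment and R848, to -0.0052 when centred. A further 8 values of the chemokines and 17 of the other genes, counted here as having kept their side, changed sign with an adjusted p of 0.05 or more in both fits.

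Leave-one-out fits, in which a lone library is taken to vary like the other groups, gave 3 to 4 chemokines called with polyU, 5 to 6 between the combined treatment and R848, and 6 to 7 for the interaction, with other counts unchanged. With the replicate block, the counts of chemokines called stayed at 3, 0, 7, 6, 6, 5, 5 and 6 over the 8 comparisons. Deviations from the group mean were compared between groups under the same replicate number. Over 10 pairs of groups (8459 genes) they correlated at -0.286 to 0.109, with a median of -0.0230. The lowest values were those of PNPi+dG/rG with vehicle (-0.286) and with polyU (-0.273). Replicate numbers may not match between groups, so the check cannot tell whether libraries were paired. The planned quasi-likelihood count test on whole reads was not run. With the offset taken off, 100% of low values were whole multiples of 1 read in every library, at a tolerance of 0.1. A check made beforehand, which reads the values with the offset on them, did not accept them as whole reads. Groups hold 2 libraries, depth differed up to 38392592 against 14128128 reads, and genes near the floor, such as Ccl17, can be read only as bounds.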
